A study of Mus musculus with 3 samples.

Results

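Chemokine ligands are small secreted proteins, named by the spacing of their first cysteines as CC, CXC, C or CX3C ligands, that bind G protein-coupled receptors on leukocytes and progenitor cells and direct their movement along gradients. Ligands of CCR2 draw monocytes out of blood, ligands of CXCR2 draw neutrophils, and *Cxcl12* holds cells bearing CXCR4 in place, so the cell that makes a ligand marks where recruited cells are called to. In implants carrying a bone morphogenetic protein, leukocytes and fibroblast-like progenitors enter the gel before cartilage and bone form. Members were all gene rows whose symbol was Ccl or Cxcl followed by a number, together with *Cx3cl1*, *Xcl1* and *Pf4*. They made up 45 of the 31053 rows of the count tables and carried 40 distinct symbols, because 5 symbols (*Ccl19*, *Ccl21a*, *Ccl21b*, *Ccl21c* and *Ccl27*) stood on 2 rows each. The question was which cells of the day 5 mass held the transcripts of each ligand, and how those levels stood in the 3 conditions.

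All mice were CD-1 females aged 6 to 8 weeks with subcutaneous implants of Matrigel, a basement membrane gel, and masses were taken on day 5. The Matrigel-only mice had gel without rhBMP2 and were given nothing by mouth. The Vehicle mice had gel with rhBMP2, recombinant human bone morphogenetic protein 2, which starts ectopic bone formation, and received corn oil/DMSO. The Palo mice had the same rhBMP2 gel and received palovarotene, an agonist of retinoic acid receptor gamma, at 4 mg/kg. Each condition was 1 droplet library made from dispase-digested masses, several masses going into 1 library, and no label tied a cell to a mouse. Matrigel-only therefore differed from Vehicle both in rhBMP2 and in gavage, and these cannot be told apart. Since each condition had a single library, differences between conditions could not be set against the spread between mice and were not tested. All intervals below are 95%. Those of levels and ratios cover counting error of UMIs only. Those of shares of cells are binomial and treat the cells of a library as independent draws. None covers the spread between mice.

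The libraries held 44252421, 46317250 and 46901673 unique molecular identifiers (UMIs, 1 per captured RNA molecule) in Matrigel-only, Vehicle and Palo. After the study's limits on genes and mitochondrial share, 8728, 5478 and 7297 cells remained. Pairs of libraries shared between 11 and 21 barcode sequences. Chemokine ligands made up 0.56%, 0.471% and 0.531% of the UMIs of the cells kept.

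Cells were placed in 5 classes. Stromal cells had at least 1% of their UMIs on *Col1a1*, *Col1a2*, *Col3a1*, *Dcn* and *Lum*, macrophages had *Csf1r* or *C1qa*, T/NK cells had *Cd3e* or *Nkg7*, neutrophils had at least 2 UMIs each of *S100a8* and *S100a9*, and basophils had *Mcpt8*. A cell that met the stromal rule was called stromal whatever else it held, and other cells that met more than 1 rule were kept apart as mixed. In the order Matrigel-only, Vehicle and Palo, there were 2085, 1373 and 1184 stromal cells, 5804, 3189 and 5654 macrophages, and 50, 213 and 44 T/NK cells. Neutrophils numbered 1, 57 and 10, and basophils 1, 66 and 0, so that only Vehicle reached 50 cells in these classes. Of 106 Vehicle cells with *Mcpt8*, the 66 were those that met no other rule. The median cell held 9082, 17114 and 12955 UMIs in the stroma and 3089.5, 3638 and 4253 in macrophages. Cells outside all classes numbered 779, 501 and 398, and mixed cells 8, 79 and 7.

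The classes carried their own markers, none of which was in the rules. The 6 stromal markers (such as *Pcolce* and *Fbn1*) summed to 10238, 9220 and 9649 CPM (the UMIs of a gene scaled to a library-class total of 1e6) in the stroma and to 124, 129 and 56.6 CPM in macrophages. The 6 macrophage markers (such as *C1qb* and *Mrc1*) summed to 8488, 7490 and 7210 CPM in macrophages and to 312, 100 and 197 CPM in the stroma, which is 3.67%, 1.34% and 2.73% of the macrophage level. The rules overlapped: 491, 384 and 340 stromal cells also met an immune rule. The Vehicle basophils also carried 1689 CPM of mast cell markers and 1566 CPM of endothelial markers beside 5840 CPM of basophil markers. Of the endothelial marker UMIs of this class, 187 lay in 1 cell. The Vehicle T/NK cells carried 526 CPM of keratinocyte markers beside 6055 CPM of T/NK markers. The part of these other cells in the ligand levels was not tested beyond the values given beside each ligand. The study named a mast cell cluster and no basophils, and how far the cells with *Mcpt8* were mast cells was not tested.

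Of the 45 rows, 35 held a UMI and 10 held none in the cells kept. The empty rows were *Ccl26*, both rows of *Ccl21a*, *Ccl21b*, *Ccl21c* and *Ccl27*, and 1 of the 2 rows of *Ccl19*. Several of these are near-identical copies on scaffolds of mm10 outside the assembled chromosomes. A read can match more than 1 copy, so an empty row does not show that the ligand was absent. The values of 24 ligands are given here, 20 of which reached 50 CPM in a class with at least 50 cells. The other 11 detected rows stayed at or below 23.9 CPM (*Ccl27a*, all 13 of its Vehicle T/NK UMIs in 1 cell), and among them *Ccl25* reached 14.7 CPM in Vehicle T/NK cells, *Cx3cl1*, the membrane-bound ligand of *Cx3cr1*, 8.14 CPM in Vehicle stroma, and *Cxcl5*, a ligand of CXCR2, 5.74 CPM in Matrigel-only stroma.

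**Figure D1:**
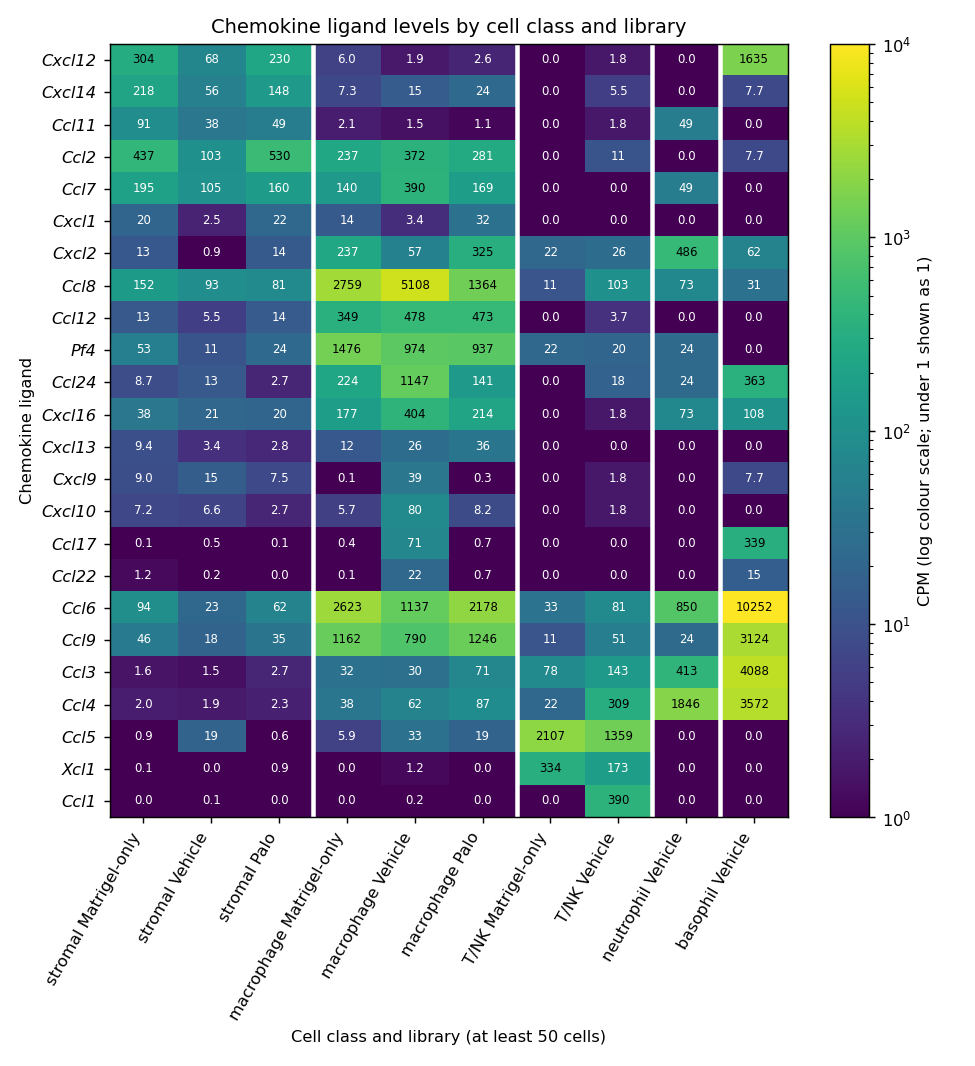
Level in CPM (colour on a log scale, with the value printed) of 24 chemokine ligands (rows) in each cell class and library with at least 50 cells (columns). The highest value is *Ccl2* in the stroma of Matrigel-only and Palo and *Ccl7* in that of Vehicle, and *Ccl8* in the macrophages of Matrigel-only and Vehicle and *Ccl6* in those of Palo. T/NK columns are led by *Ccl5* and the basophil column by *Ccl6*, *Ccl3*, *Ccl4* and *Ccl9*. The 1635 CPM of *Cxcl12* in basophils came from 1 cell, and 196 of the 212 UMIs of *Ccl1* in Vehicle T/NK cells also came from 1 cell.

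Stromal cells and macrophages spent different shares of their RNA on chemokines. All ligands together came to 1743 (1725 to 1762), 629 (619 to 639) and 1431 (1413 to 1450) CPM in the stroma of Matrigel-only, Vehicle and Palo. In macrophages they came to 9520 (9477 to 9562), 11254 (11198 to 11309) and 7617 (7584 to 7650) CPM. Vehicle therefore held the lowest stromal total and the highest macrophage total. The log2 ratio of Vehicle over Matrigel-only was -1.47 (-1.50 to -1.44) in the stroma and 0.24 (0.23 to 0.25) in macrophages, and that of Palo over Vehicle was 1.19 (1.16 to 1.22) and -0.56 (-0.57 to -0.55). The macrophage total rested on 1 gene: without *Ccl8*, which held 45.4% of the chemokine UMIs of Vehicle macrophages, the ratios were -0.14 and 0.03. The first macrophage ratio also turned to -0.05 when each cell was counted in every class whose rule it met. The stromal ratios kept their direction under every alternative that could move them, from -1.54 to -1.19 and from 0.78 to 1.42. Some alternatives left the stromal total as it was by construction. These were counting cells in every class, asking for 2 marker UMIs, adding 1 CPM and dropping the filter on low levels.

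The leading ligands differed between classes but were not all distinct, as *Ccl8* was among the leading 3 of both stroma and macrophages in Vehicle. Stromal *Ccl8* stood there at 1.81% of its macrophage level, beside 1.34% for the macrophage markers. The part of macrophage RNA in it was not tested. In the stroma *Ccl2*, *Cxcl12* and *Cxcl14* took 25.1%, 17.4% and 12.5% of the chemokine UMIs in Matrigel-only, *Ccl7*, *Ccl2* and *Ccl8* took 16.7%, 16.4% and 14.7% in Vehicle, and *Ccl2*, *Cxcl12* and *Ccl7* took 37%, 16% and 11.2% in Palo. In macrophages the leading 3 were *Ccl8*, *Ccl6* and *Pf4* in Matrigel-only (29%, 27.6% and 15.5%), *Ccl8*, *Ccl24* and *Ccl6* in Vehicle (45.4%, 10.2% and 10.1%) and *Ccl6*, *Ccl8* and *Ccl9* in Palo (28.6%, 17.9% and 16.3%). *Ccl5* alone took 79.4%, 49.6% and 74.3% of the chemokine UMIs of T/NK cells. In Vehicle basophils *Ccl6* took 43.4%, and in Vehicle neutrophils *Ccl4* took 47.2%.

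**Figure D2:**
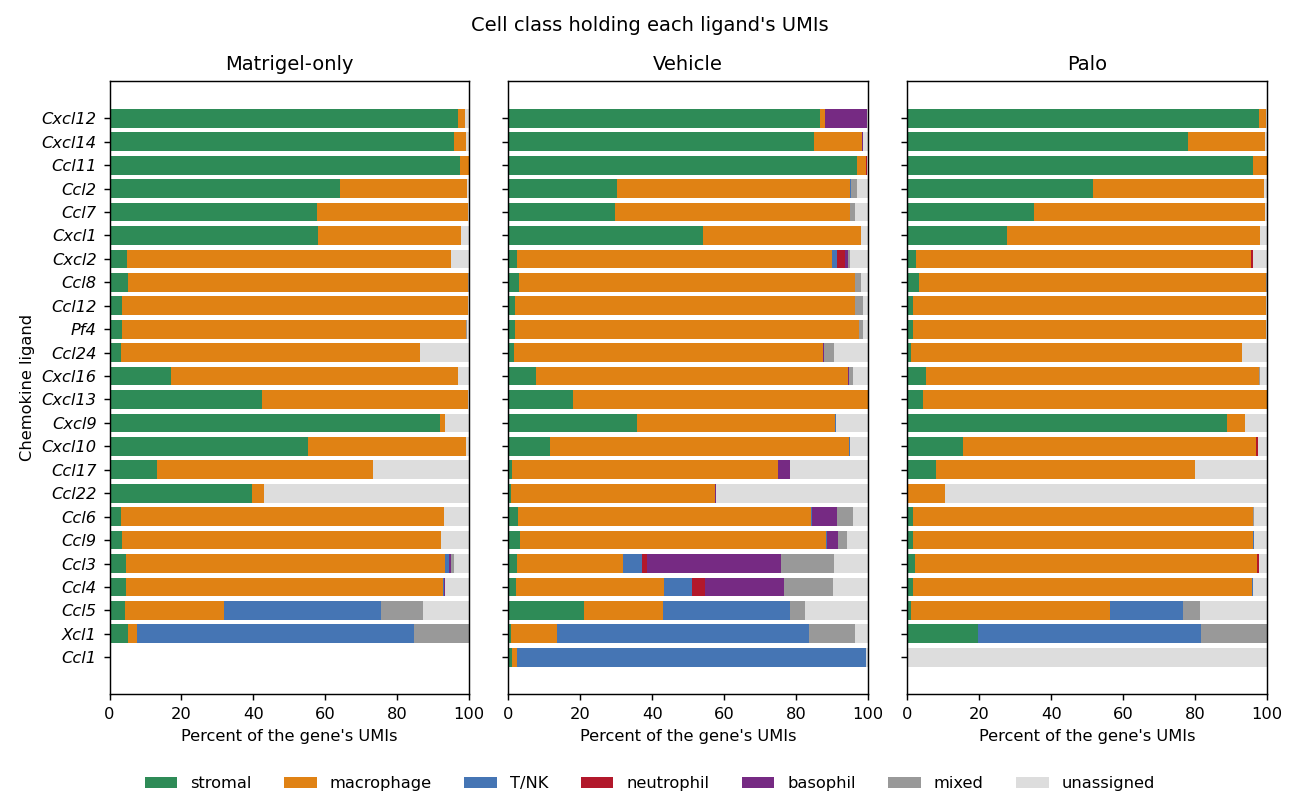
Percent of each ligand's UMIs (horizontal axis) that lay in each cell class, in the 3 libraries, over all cells kept. *Cxcl12*, *Cxcl14* and *Ccl11* lay mostly in stromal cells (86.7% to 97.9%, 78% to 95.8% and 96.1% to 97.6%), *Pf4*, *Ccl8* and *Ccl12* mostly in macrophages (93.4% to 98.3%), and the share of *Ccl2* and *Ccl7* in the stroma was lowest in Vehicle (30.2% and 29.6%).

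*Cxcl12*, the ligand of CXCR4, and *Cxcl14*, a ligand of skin and connective tissue without a settled receptor, were stromal transcripts. *Cxcl12* stood at 304 (297 to 312) CPM in Matrigel-only stroma, 67.7 (64.5 to 71.1) in Vehicle and 230 (222 to 237) in Palo, and at 6, 1.85 and 2.55 CPM in macrophages. *Cxcl14* stood at 218 (212 to 225), 55.8 (52.8 to 58.9) and 148 (142 to 154) CPM in the stroma and at 7.28, 14.8 and 23.6 CPM in macrophages. Both were lowest in Vehicle stroma, with log2 ratios over Matrigel-only of -2.17 (-2.25 to -2.09) and -1.97 (-2.06 to -1.88), and both were higher in Palo than in Vehicle, by 1.76 (1.68 to 1.85) and 1.41 (1.31 to 1.51). When cells were weighted equally in place of their UMIs, the Palo over Vehicle value of *Cxcl14* with 5 CPM added was 0.62 in place of 1.33.

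At equal depth the share of stromal cells was again lowest in Vehicle. After each cell was thinned to 1000 UMIs, 19.8% (18.1 to 21.6) of Matrigel-only, 5.99% (4.78 to 7.39) of Vehicle and 18.3% (16.1 to 20.6) of Palo stromal cells held a *Cxcl12* UMI, against 0.529%, 0.263% and 0.271% of macrophages. Without thinning the shares were 56.1%, 26% and 66% of stromal cells and 1.71%, 0.784% and 1.15% of macrophages. For *Cxcl14* the thinned shares were 11.7%, 3.68% and 7.88% of stromal cells and 0.646%, 1.31% and 2.02% of macrophages, so the macrophage share was highest in Palo. Stromal markers in macrophages stood at 1.21%, 1.4% and 0.586% of their stromal level, *Cxcl12* at 1.97%, 2.74% and 1.11%, and *Cxcl14* at 3.33%, 26.5% and 16%. The macrophage UMIs of *Cxcl14* were spread over 116, 141 and 431 cells.

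*Ccl11*, or eotaxin, the ligand of CCR3 that draws eosinophils, was likewise stromal. Its level was 91 (86.9 to 95.3) CPM in Matrigel-only, 37.9 (35.5 to 40.5) in Vehicle and 48.8 (45.4 to 52.3) in Palo stroma, against 2.11, 1.5 and 1.13 CPM in macrophages. The log2 ratio of Vehicle over Matrigel-only was -1.26 (-1.38 to -1.15) and that of Palo over Vehicle 0.36 (0.22 to 0.50). With all deposited barcodes in place of the cells kept, the first ratio with 5 CPM added was -0.69 in place of -1.16, under 2-fold.

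The stroma was not of 1 kind. Stromal cells with at least 2 UMIs on *Acan* and *Col2a1* together, the aggrecan and type II collagen genes of cartilage, numbered 0, 725 and 3 in Matrigel-only, Vehicle and Palo. Those with at least 2 UMIs of *Pi16*, a gene of adventitial and subcutaneous fibroblasts, numbered 947, 112 and 287, and those with neither 1138, 532 and 894, while 4 Vehicle cells had both. The Vehicle cells with *Acan* and *Col2a1* held little of these ligands, with 11.8 (10 to 13.9) CPM of *Cxcl12*, 4.33 (3.27 to 5.62) of *Cxcl14*, 2.63 (1.82 to 3.67) of *Ccl11* and 20.7 (18.3 to 23.4) of *Ccl2*.

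In the *Pi16* cells the order of the libraries was different, with Vehicle highest. *Cxcl12* stood at 191 (181 to 201), 531 (495 to 568) and 133 (121 to 147) CPM. *Cxcl14* stood at 186, 517 and 226 CPM in these cells, and *Ccl11* at 129, 396 and 162. The log2 ratios of Vehicle over Matrigel-only were 1.48 (1.35 to 1.60) for *Cxcl12*, 1.47 (1.35 to 1.60) for *Cxcl14* and 1.62 (1.47 to 1.76) for *Ccl11*, and those of Palo over Vehicle -1.99 (-2.17 to -1.82), -1.19 (-1.34 to -1.04) and -1.29 (-1.47 to -1.12). Without the cell with most UMIs of the gene, the Vehicle levels were 492, 441 and 338 CPM. These Vehicle values came from 112 cells, 8.16% of the stroma, against 45.4% in Matrigel-only and 24.2% in Palo.

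In the stromal cells with neither, Vehicle was again the lowest in *Cxcl12* and *Cxcl14*. *Cxcl12* stood at 378, 64.5 and 253 CPM and *Cxcl14* at 240, 50.3 and 130 CPM in Matrigel-only, Vehicle and Palo. *Ccl11* stood at 66.3, 23.7 and 22.4 CPM there, and its Palo over Vehicle ratio was -0.08 (-0.35 to 0.18). How far the makeup of the stroma set the Vehicle level of the whole stroma was not tested.

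**Figure D3:**
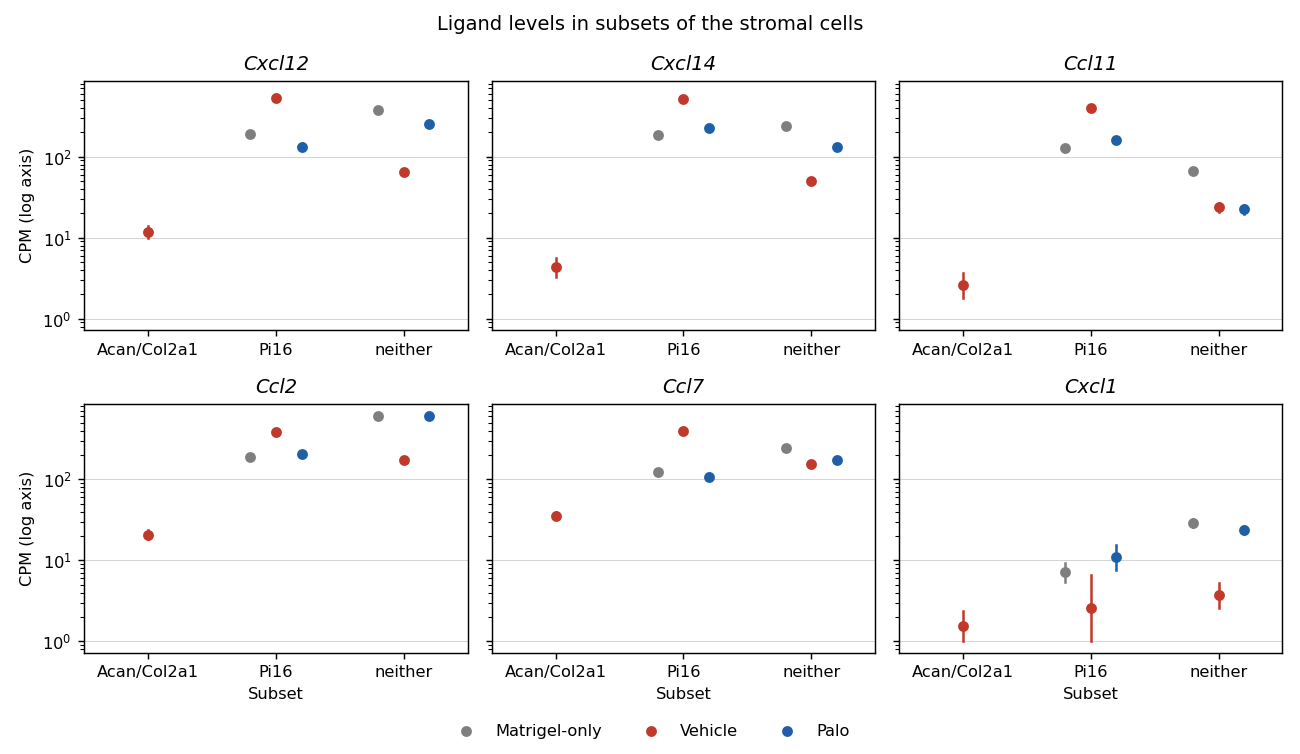
Level in CPM (vertical log axis, points with 95% Poisson bars) of 6 ligands in stromal cells with *Acan* and *Col2a1*, with *Pi16*, or with neither, by library, where a subset held at least 50 cells, with ends of bars below 1 drawn at 1. Vehicle is the highest point of the *Pi16* cells for *Cxcl12*, *Cxcl14*, *Ccl11*, *Ccl2* and *Ccl7*, and the lowest of the cells with neither for each ligand drawn but *Ccl11* (23.7, against 22.4 in Palo).

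*Ccl2* and *Ccl7*, monocyte chemoattractants that bind CCR2, were shared by stroma and macrophages. *Ccl2* stood at 437 (428 to 447), 103 (99 to 107) and 530 (519 to 542) CPM in the stroma and at 237, 372 and 281 CPM in macrophages. *Ccl7* stood at 195 (189 to 201), 105 (101 to 109) and 160 (154 to 166) CPM in the stroma and at 140, 390 and 169 CPM in macrophages. In both genes the stroma was lowest and the macrophages highest in Vehicle, so that the class with the higher level changed from stroma in Matrigel-only to macrophages in Vehicle. In Palo the stroma again held the higher level of *Ccl2*, while the *Ccl7* levels of the classes had overlapping intervals.

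The log2 ratios of Vehicle over Matrigel-only were -2.09 (-2.15 to -2.02) in the stroma and 0.65 (0.59 to 0.71) in macrophages for *Ccl2*, and -0.89 (-0.97 to -0.82) and 1.48 (1.42 to 1.55) for *Ccl7*. Those of Palo over Vehicle were 2.36 (2.30 to 2.43) and -0.41 (-0.46 to -0.36) for *Ccl2*, and 0.61 (0.53 to 0.69) and -1.21 (-1.26 to -1.15) for *Ccl7*. Both comparisons use the Vehicle library. The macrophage ratios of *Ccl7* with 5 CPM added, 1.45 and -1.18, were 0.86 and -0.80 when cells were counted in every class they met, and the second was -0.997 under TMM scaling. Stromal cells with a *Ccl2* UMI held *Ccl7* more often than the rest: 69.9% against 24.3% in Matrigel-only, 63.5% against 19.5% in Vehicle and 66% against 24.4% in Palo, where the cells with *Ccl2* were also the deeper ones (medians 11677, 18567 and 15042 UMIs against 7959, 16637 and 11528).

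The stromal cells that led in *Ccl2* were those with neither *Pi16* nor cartilage genes in Matrigel-only and Palo. Their levels were 600, 173 and 610 CPM, beside 187, 384 and 205 CPM in the *Pi16* cells. In the Palo *Pi16* cells 33.8% of the *Ccl2* UMIs lay in 1 cell, without which the level was 137 CPM. Among the macrophage subsets with 1 marker pair, defined below, the highest *Ccl2* level was in those marked by *Ms4a7* and *Stab1*, genes of resident-type macrophages. It stood there at 335, 488 and 522 CPM.

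*Ccl8* and *Ccl12*, which lie in the same chromosomal cluster as *Ccl2* and *Ccl7*, were macrophage transcripts. *Ccl8* stood at 2759 (2737 to 2782), 5108 (5070 to 5145) and 1364 (1350 to 1377) CPM in macrophages, and at 152, 92.7 and 81.5 CPM in the stroma. *Ccl12* stood at 349, 478 and 473 CPM in macrophages and at 13.1, 5.47 and 13.8 CPM in the stroma. The log2 ratio of Palo over Vehicle was -1.90 (-1.92 to -1.89) for *Ccl8* and -0.02 (-0.06 to 0.03) for *Ccl12*. Over Matrigel-only, Vehicle was 0.89 (0.87 to 0.90) higher in *Ccl8* and 0.45 (0.41 to 0.50) higher in *Ccl12*. After thinning, 40.7%, 36.4% and 24.9% of macrophages held *Ccl8*, so that the higher Vehicle level was not matched by a larger share of cells.

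In the stroma *Ccl12* stood at 3.74%, 1.14% and 2.92% of its macrophage level, where the macrophage markers stood at 3.67%, 1.34% and 2.73%. *Ccl8* stood at 5.52%, 1.81% and 5.98%, and in the Vehicle *Pi16* cells it reached 330 CPM, where the macrophage markers summed to 140 CPM. *Ms4a7* and *Stab1* macrophages held 4224, 7323 and 2772 CPM of *Ccl8*, and 594, 804 and 1034 CPM of *Ccl12*. Subsets of macrophages had at least 2 UMIs on 1 marker pair and under 2 on the others. Macrophages with none of the pairs numbered 784, 916 and 842 and those with several 1321, 400 and 1232, and their levels are not given here. Macrophages marked by *Hal* and *Retnla*, the latter a gene of alternatively activated macrophages, held 284, 2831 and 149 CPM of *Ccl8*, and those marked by *Mmp12* and *Itgax* 16.6, 39.7 and 9.39 CPM. *Ccl8* in the *Hal* and *Retnla* cells of Vehicle was 3.32 (3.22 to 3.42) above Matrigel-only on the log2 scale, against 0.79 (0.77 to 0.81) in the *Ms4a7* and *Stab1* cells, and the difference between these ratios was not tested.

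*Ccl24*, or eotaxin-2, a second ligand of CCR3, was a macrophage transcript, unlike *Ccl11*. It stood at 224 (218 to 231) CPM in Matrigel-only macrophages, 1147 (1129 to 1165) in Vehicle and 141 (137 to 146) in Palo, and at 8.68, 13 and 2.72 CPM in the stroma. The macrophage log2 ratios were 2.35 (2.31 to 2.40) for Vehicle over Matrigel-only and -3.02 (-3.07 to -2.97) for Palo over Vehicle. The share of macrophages with a UMI after thinning moved less, at 13.4%, 18.6% and 8.03%. In every macrophage subset Vehicle was the highest: 69.1, 1043 and 129 CPM in *Ms4a7* and *Stab1* cells, 504, 2168 and 203 in *Hal* and *Retnla* cells, and 37.9, 436 and 11 in *Mmp12* and *Itgax* cells. Vehicle macrophages with *Ccl8* held *Ccl24* in 40.3% of cells against 14.9% of those without, while the shares were 25.3% and 24.5% in Matrigel-only and 21.9% and 17.4% in Palo. The Vehicle cells with *Ccl8* were also the deeper ones (medians 3999 against 3331 UMIs). The medians were 3136 and 3016 in Matrigel-only and 4087 and 4346 in Palo, and the part of depth was not tested.

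*Cxcl1* and *Cxcl2*, the neutrophil chemoattractants that bind CXCR2, had the same order in both classes, with Vehicle lowest. *Cxcl1* stood at 20.3 (18.4 to 22.4), 2.46 (1.87 to 3.18) and 21.5 (19.3 to 24) CPM in the stroma and at 13.7, 3.35 and 31.6 CPM in macrophages. *Cxcl2* was mainly a macrophage transcript, at 237 (231 to 244), 57.1 (53.2 to 61.2) and 325 (318 to 332) CPM, and stood at 12.7, 0.89 and 13.8 CPM in the stroma. The log2 ratios in macrophages were -2.03 (-2.51 to -1.58) and -2.06 (-2.16 to -1.95) for Vehicle over Matrigel-only and 3.24 (2.81 to 3.69) and 2.51 (2.40 to 2.61) for Palo over Vehicle, for *Cxcl1* and *Cxcl2*. *Cxcl2* in the stroma stood at 5.34%, 1.56% and 4.24% of its macrophage level, beside 3.67%, 1.34% and 2.73% for the macrophage markers. Among stromal cells that met no other rule its ratios with 5 CPM added were -0.74 and 0.97, under 2-fold.

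Both genes lie next to each other on chromosome 5 of mm10, *Cxcl1* at chr5:90891241-90893115 and *Cxcl2* at chr5:90903871-90905938 on the plus strand. The 250 bases before the RefSeq start (GRCm38.p6) are printed because these neighbours moved together in macrophages, with matches to the κB motif (GGG, any 2 bases, TTTCC), read on both strands, in capitals (the match of *Cxcl1* farther from the start is on the minus strand). For *Cxcl1* the window is chr5:90890995-90891244 and for *Cxcl2* chr5:90903649-90903898, both on the plus strand. Promoters were found in the RefSeq table for 28 of the 40 member symbols. Those without one included *Ccl2*, *Ccl4*, *Ccl5*, *Ccl7*, *Ccl11*, *Ccl24* and *Cxcl16*.

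Cxcl1: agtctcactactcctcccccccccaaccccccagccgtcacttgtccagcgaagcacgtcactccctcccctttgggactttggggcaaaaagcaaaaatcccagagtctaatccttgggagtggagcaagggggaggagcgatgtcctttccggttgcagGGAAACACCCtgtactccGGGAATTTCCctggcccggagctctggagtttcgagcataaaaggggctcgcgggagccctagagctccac
Cxcl2: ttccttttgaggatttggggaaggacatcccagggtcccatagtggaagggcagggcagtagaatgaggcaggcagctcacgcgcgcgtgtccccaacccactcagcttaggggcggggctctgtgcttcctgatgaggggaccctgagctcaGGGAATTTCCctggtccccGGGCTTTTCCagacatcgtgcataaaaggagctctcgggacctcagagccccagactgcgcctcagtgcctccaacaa

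The motif lay at 89 and 71 bases before the start in *Cxcl1* and at 97 and 78 in *Cxcl2*. It was found in 5 of the 28 member promoters (*Ccl20*, *Cxcl3*, *Cxcl1*, *Cxcl2* and *Ccl9*) and in 1.4% of 27025 promoters of the same length. A match describes the letters only and is not a measured binding site.

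*Cxcl9* and *Cxcl10*, interferon-induced ligands of CXCR3 that draw T cells, were rare transcripts that stood out in Vehicle macrophages. *Cxcl9* stood at 0.147 CPM in Matrigel-only macrophages (3 UMIs), 38.9 (35.7 to 42.3) in Vehicle and 0.255 (7 UMIs) in Palo. *Cxcl10* stood at 5.65 (4.67 to 6.79), 79.8 (75.2 to 84.6) and 8.17 (7.14 to 9.31) CPM. The ratios of Vehicle over Matrigel-only were 8.04 (6.49 to 10.3) and 3.82 (3.54 to 4.11) on the log2 scale, and those of Palo over Vehicle -7.25 (-8.57 to -6.20) and -3.29 (-3.50 to -3.08). Few cells carried them. In Vehicle 85 of 3189 macrophages held a *Cxcl9* UMI, 1 of which had 25.3% of them (29 CPM without it), and 213 held a *Cxcl10* UMI.

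In the stroma these ligands followed no such order. *Cxcl9* stood at 9.03, 15.1 and 7.52 CPM and *Cxcl10* at 7.18, 6.57 and 2.65 CPM, with Vehicle highest in the first alone, and 65.8% of the Vehicle stromal *Cxcl10* UMIs lay in 1 cell, without which the level was 2.25 CPM. In Matrigel-only and Palo most *Cxcl9* UMIs were stromal (91.9% and 88.8%), while in Vehicle 55% were in macrophages. Of the Vehicle macrophages with *Cxcl9*, 23.5% also held *Cxcl10*, against 6.22% of the rest (median depths 4116 and 3624.5 UMIs). Their promoters, both on the minus strand, are printed because these genes, 18.6 kb apart, both encode ligands of CXCR3. *Cxcl9* reached a mean of 5 CPM over the libraries in macrophages only through Vehicle, which fixed its direction. Nothing is therefore read from that direction being shared with *Cxcl10*. The windows are chr5:92328080-92328329 for *Cxcl9* and chr5:92348890-92349139 for *Cxcl10*, and capitals mark a match to the core of the interferon-stimulated response element (GAAA, any 2 bases, GAAA), read on both strands.

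Cxcl9: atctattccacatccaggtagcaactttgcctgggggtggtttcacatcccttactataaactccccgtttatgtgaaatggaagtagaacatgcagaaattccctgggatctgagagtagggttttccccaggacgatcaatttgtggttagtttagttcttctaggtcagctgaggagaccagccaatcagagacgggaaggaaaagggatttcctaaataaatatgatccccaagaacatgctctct
Cxcl10: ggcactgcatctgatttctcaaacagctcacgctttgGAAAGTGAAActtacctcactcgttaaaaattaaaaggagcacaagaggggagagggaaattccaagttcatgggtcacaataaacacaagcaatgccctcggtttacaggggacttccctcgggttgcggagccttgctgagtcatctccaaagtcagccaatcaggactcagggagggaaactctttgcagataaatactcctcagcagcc

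The core was found 213 bases before the start of *Cxcl10* and not in the window of *Cxcl9*. Its absence says nothing of elements outside that window, or of elements with other letters inside it. It was present in 3 of the 28 member promoters (*Ccl19*, *Cxcl10* and *Cxcl14*) and in 3.04% of all promoters. The gamma-activated site (TTC, any 3 bases, GAA) was in 2 (*Ccl17* and *Cxcl14*) and in 7.18% of all.

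*Ccl17* and *Ccl22*, ligands of CCR4 made by dendritic cells and activated macrophages, lay in few cells. *Ccl17* stood at 0.443 (9 UMIs), 71 (66.6 to 75.5) and 0.657 (18 UMIs) CPM in macrophages and *Ccl22* at 0.0983 (2 UMIs), 21.5 (19.2 to 24.1) and 0.657 (18 UMIs) CPM. The log2 ratios of Vehicle over Matrigel-only were 7.33 (6.40 to 8.46) and 7.78 (5.91 to 10.8), and those of Palo over Vehicle -6.76 (-7.52 to -6.09) and -5.04 (-5.81 to -4.35). The Vehicle UMIs of *Ccl17* came from 64 cells, 47 of which were *Mmp12* and *Itgax* macrophages, where its level was 499 (467 to 533) CPM and that of *Ccl22* 119 (104 to 136) CPM. In the Matrigel-only and Palo *Mmp12* and *Itgax* cells *Ccl17* stood at 4.73 and 4.3 CPM. The macrophage markers summed to only 1259, 2122 and 1197 CPM in the *Mmp12* and *Itgax* cells, against 4494, 4902 and 4227 CPM in *Hal* and *Retnla* cells. Whether the *Mmp12* and *Itgax* cells included dendritic cells was not tested. Of the Vehicle macrophages with *Ccl17*, 29.7% also held *Ccl22*, against 0.384% of those without (median depths 7963 and 3596 UMIs).

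Cells outside the classes held these ligands too. *Ccl22* stood at 19.6, 152 and 119 CPM and *Ccl17* at 2.18, 197 and 3.91 CPM in the unassigned cells, where dendritic cell markers (such as *Flt3*, *Ccr7* and *Fscn1*) summed to 573, 851 and 644 CPM against 64.2, 159 and 70.2 CPM in macrophages. In Palo 63.2% of the unassigned *Ccl22* UMIs lay in 1 cell, without which the level was 44 CPM. In Palo and Matrigel-only, 89.4% and 57.1% of all *Ccl22* UMIs were in unassigned cells.

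*Ccl6* and *Ccl9*, rodent ligands of CCR1, were carried by many macrophages. *Ccl6* stood at 2623 (2601 to 2645) CPM in Matrigel-only, 1137 (1119 to 1155) in Vehicle and 2178 (2160 to 2195) in Palo macrophages. *Ccl9* stood at 1162, 790 and 1246 CPM. After thinning, 63.9%, 31.8% and 65.8% of macrophages held *Ccl6* and 53.6%, 36.9% and 58.6% held *Ccl9*. Vehicle was lowest in each, and its log2 ratios over Matrigel-only were -1.21 (-1.23 to -1.18) and -0.56 (-0.59 to -0.52), while Palo over Vehicle was 0.94 (0.91 to 0.96) and 0.66 (0.63 to 0.69).

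Among the macrophage subsets with 1 marker pair, *Ccl6* was highest in *Hal* and *Retnla* macrophages, at 5104, 2209 and 3558 CPM. *Ccl9* was high both in these, at 2103, 1309 and 1812 CPM, and in *Mmp12* and *Itgax* macrophages, at 1436, 1359 and 1645 CPM. In the *Ms4a7* and *Stab1* macrophages both stood lower, at 710, 500.3 and 864 CPM and at 461, 419 and 656 CPM. Macrophages with *Hal* and *Retnla* and no other pair numbered 1226, 175 and 1073, or 21.1%, 5.49% and 19% of the class. The part of that makeup in the class level was not tested. In the stroma *Ccl6* stood at 3.58%, 1.98% and 2.87% and *Ccl9* at 3.94%, 2.34% and 2.78% of their macrophage levels, beside 3.67%, 1.34% and 2.73% for the macrophage markers, and in Vehicle both stood above the range of the single markers (1.19% to 1.56%). The stromal ratio of *Ccl9*, -1.12 for Vehicle over Matrigel-only with 5 CPM added, was -0.33 in stromal cells that met no other rule.

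*Pf4*, platelet factor 4, a ligand also used as a marker of resident macrophages, stood at 1476 (1460 to 1493), 974 (957 to 990) and 937 (926 to 949) CPM in macrophages. Among the subsets with 1 marker pair it was led by the *Ms4a7* and *Stab1* cells, at 2285, 1559 and 1840 CPM. It stood at 56.8, 17.3 and 28.2 CPM in *Mmp12* and *Itgax* cells. In the stroma it stood at 52.6, 11.1 and 23.6 CPM, which is 3.56%, 1.14% and 2.52% of the macrophage level. Its stromal ratio of Vehicle over Matrigel-only with 5 CPM added, -1.84, was -0.49 in stromal cells that met no other rule. *Cxcl16*, the membrane-bound ligand of CXCR6, stood at 177 (172 to 183), 404 (394 to 415) and 214 (209 to 220) CPM in macrophages and at 38.2, 21.1 and 20.2 CPM in the stroma. Its Vehicle over Matrigel-only ratios were 1.19 (1.13 to 1.25) in macrophages and -0.86 (-1.02 to -0.69) in the stroma. The macrophage value with 5 CPM added, 1.17, fell under 2-fold to 0.86 when cells were counted in every class they met and to 0.97 at a stromal limit of 5%. *Cxcl13*, the B cell ligand of CXCR5, stood at 12.4, 26.3 and 35.9 CPM in macrophages, in 49, 46 and 60 cells. In the stroma it ran the other way, at 9.38, 3.43 and 2.84 CPM, with 42.5%, 18% and 4.37% of its UMIs.

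**Figure D4:**
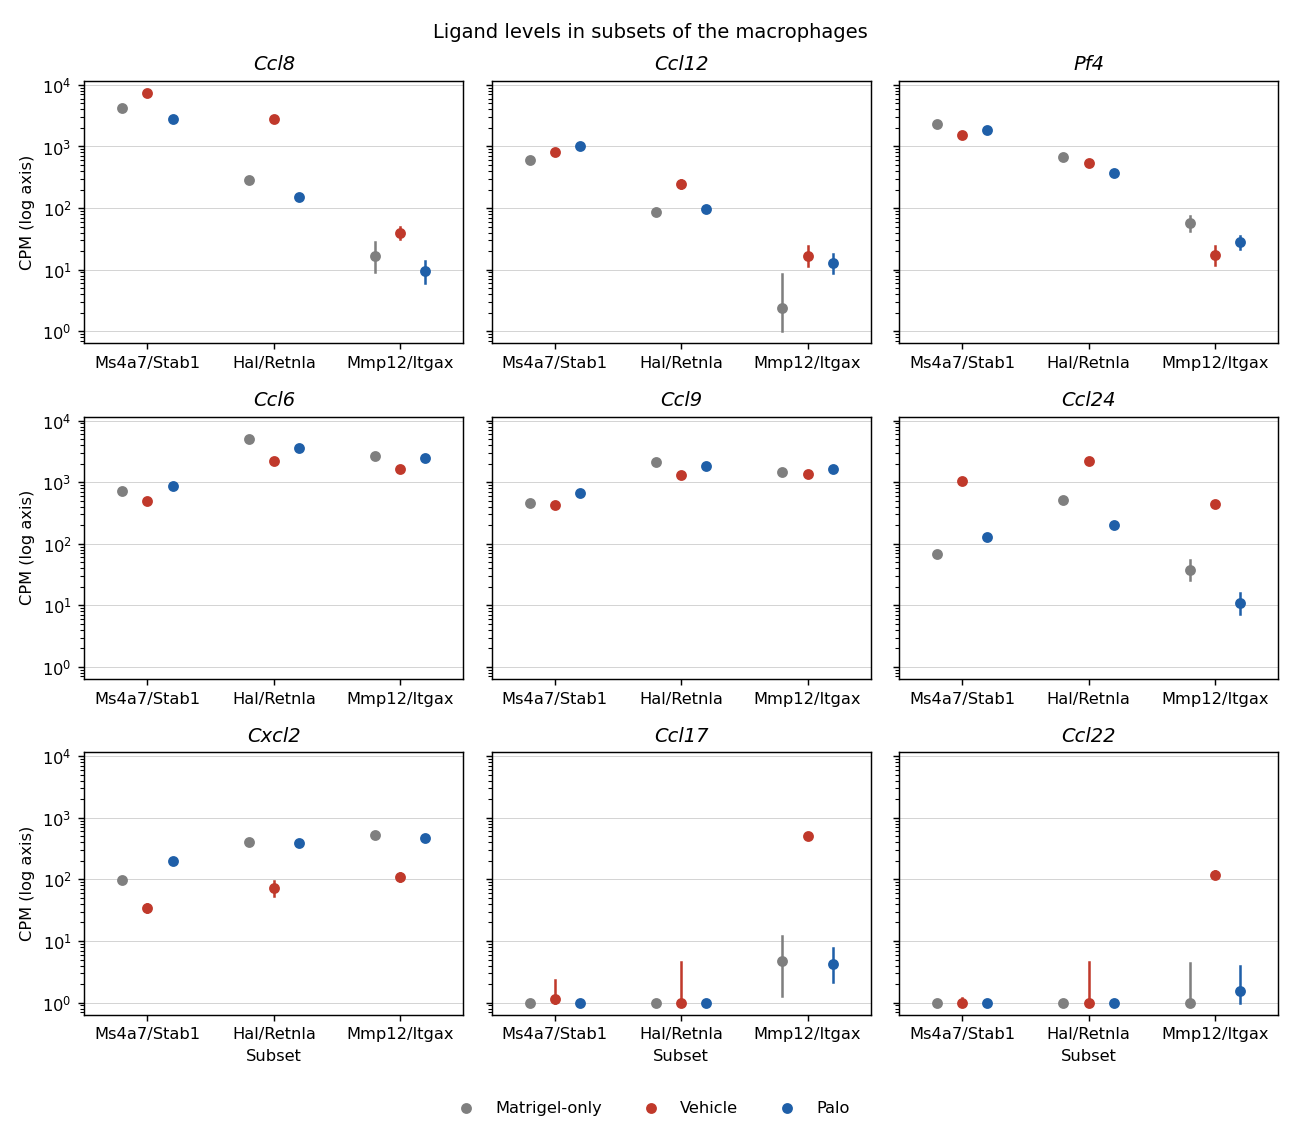
Level in CPM (vertical log axis, points with 95% Poisson bars) of 9 ligands in macrophages marked by *Ms4a7* and *Stab1*, by *Hal* and *Retnla*, or by *Mmp12* and *Itgax*, by library, with values below 1 drawn at 1. *Ccl8*, *Ccl12* and *Pf4* fall from left to right, *Ccl6* and *Ccl9* are lowest at the left, *Ccl24* is highest in Vehicle in each subset, and *Ccl17* and *Ccl22* rise above 100 CPM in Vehicle *Mmp12* and *Itgax* cells alone among the points drawn.

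*Ccl5*, or RANTES, a T cell and monocyte attractant, and *Xcl1*, the ligand of XCR1 on cross-presenting dendritic cells, were led by T/NK cells. *Ccl5* stood at 2107 (1817 to 2430), 1359 (1263 to 1461) and 1651 (1427 to 1900) CPM and *Xcl1* at 334 (226 to 477), 173 (140 to 212) and 400 (294 to 532) CPM there, where Palo had 44 cells and was given no ratio. The more numerous macrophages, with lower levels, held 27.5%, 21.9% and 55.2% of all *Ccl5* UMIs, against 43.6%, 35.3% and 20.6% in T/NK cells. In macrophages *Ccl5* stood at 5.85, 32.7 and 19 CPM, in 25, 119 and 93 cells.

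The stromal level of *Ccl5* was that of 1 cell. It stood at 0.948, 18.7 and 0.632 CPM, and 89.6% of the 442 Vehicle UMIs lay in 1 cell, without which the Vehicle level was 1.95 CPM. The stromal ratios with 5 CPM added, 2.00 and -2.08, were 0.33 and -0.37 without that cell in each library, and -0.07 and 0.05 at a stromal limit of 5%. *Ccl1*, a ligand of CCR8 made by activated T cells, stood at 390 CPM in Vehicle T/NK cells, with 196 of 212 UMIs in 1 cell that also held 6 *Cd3e* and 13 *Nkg7* UMIs, and at 29.7 CPM without it. It had 0 UMIs in the T/NK cells of Matrigel-only and Palo, where a count of 0 allows up to 33.4 and 25.5 CPM (3 counts).

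Vehicle basophils held the highest levels of *Ccl6*, *Ccl3*, *Ccl4* and *Ccl9* in any class of at least 50 cells. *Ccl6* stood at 10252 (9708 to 10818), *Ccl3* at 4088 (3748 to 4452), *Ccl4* at 3572 (3254 to 3912) and *Ccl9* at 3124 (2827 to 3444) CPM. These were spread over the class: of 66 cells, 64 held *Ccl6*, 60 *Ccl9*, 59 *Ccl3* and 49 *Ccl4*. The 66 cells, 1.2% of the library, held 37.5% of its *Ccl3* UMIs and 21.9% of its *Ccl4* UMIs. The only basophil of Matrigel-only held 23 UMIs of *Ccl6* and 4 each of *Ccl9* and *Ccl3* among 773.

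Other ligands of the basophil class came from single cells. All 212 UMIs of *Cxcl12* (1635 CPM) lay in a cell of 32582 UMIs with 187 UMIs of endothelial markers and 1 of *Mcpt8*. All 44 of *Ccl17* and all 47 of *Ccl24* lay in a cell of 7306 UMIs with 1 of *Mcpt8*. Without these cells each of the 3 levels was 0. Both cells held 0 UMIs of the basophil markers, and their UMIs are part of the 129633 of the class. The levels of *Ccl6*, *Ccl3*, *Ccl4* and *Ccl9* given above include these cells in the class total and were not computed without them.

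Vehicle neutrophils, with a median of only 651 UMIs, held 1846 (1454 to 2310) CPM of *Ccl4*, 850.1 (592 to 1182) of *Ccl6*, 486 (297 to 750.2) of *Cxcl2* and 413 (241 to 661) of *Ccl3*, in 13, 20, 9 and 10 of 57 cells. The 10 Palo neutrophils held 4609 (3462 to 6014) CPM of *Cxcl2*, 50% of it in 1 cell, or 2467 CPM without it. In macrophages *Ccl3* stood at 31.9, 29.5 and 70.6 CPM and *Ccl4* at 37.8, 61.8 and 86.6 CPM. Palo over Vehicle was 1.26 (1.11 to 1.42) for macrophage *Ccl3* and 0.49 (0.37 to 0.60) for *Ccl4*. In Vehicle T/NK cells *Ccl4* stood at 309 CPM and *Ccl3* at 143 CPM, with 37.5% and 64.1% of the UMIs in 1 cell, or 195 and 52.1 CPM without it.

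Counts of ligands past 2-fold were set beside all genes of the same class. With 5 CPM added and a mean of at least 5 CPM over the libraries, 21 ligands were counted in each class. In the stroma 9 of 21 were at least 2-fold lower in Vehicle than in Matrigel-only (*Pf4*, *Cxcl1*, *Cxcl2*, *Cxcl12*, *Ccl2*, *Ccl11*, *Ccl9*, *Ccl6* and *Cxcl14*), where 7.09% of 10311 genes were, and with cells that met no other rule 6 were, without *Pf4* (-0.49), *Cxcl2* (-0.74) and *Ccl9* (-0.33). With all deposited barcodes 8 were, without *Ccl11* (-0.69). In the cells as classed, 1 was higher (*Ccl5*, from 1 cell), where 3.35% were. From Vehicle to Palo 6 were higher (*Cxcl1*, *Cxcl2*, *Cxcl12*, *Ccl2*, *Ccl6* and *Cxcl14*), where 4.47% of genes were, and with cells weighted equally 4 ligands were, without *Ccl6* (0.97) and *Cxcl14* (0.62). In stromal cells that met no other rule *Cxcl2* was under 2-fold here too (0.97). Stromal *Ccl6* stood at 3.58%, 1.98% and 2.87% of its macrophage level in Matrigel-only, Vehicle and Palo, beside 3.67%, 1.34% and 2.73% for the macrophage markers. The part of macrophage RNA in its stromal calls was not tested. From Vehicle to Palo 2 ligands were lower (*Ccl24* and *Ccl5*), where 3.28% of genes were. The median log2 ratio of the 21 was -0.79 and 0.36 in these comparisons, against -0.04 and 0.01 over all genes.

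In macrophages 8 of 21 were at least 2-fold higher in Vehicle than in Matrigel-only (*Cxcl9*, *Cxcl10*, *Ccl24*, *Ccl22*, *Ccl17*, *Cxcl16*, *Ccl7* and *Ccl5*), where 2.42% of 9534 genes were, and 3 were lower (*Cxcl1*, *Cxcl2* and *Ccl6*), where 1.16% were. From Vehicle to Palo 3 were higher (*Cxcl1*, *Cxcl2* and *Ccl3*), where 0.902% were, and 7 were lower (*Cxcl9*, *Cxcl10*, *Ccl24*, *Ccl22*, *Ccl17*, *Ccl7* and *Ccl8*), where 2.91% were. The medians were 0.69 and -0.40, against -0.00046 and -0.14 over all genes. *Cxcl9*, *Ccl17* and *Ccl22* in macrophages, and *Ccl5* in the stroma, reached the mean of 5 CPM only through Vehicle, the library where they were high, so that the filter fixed their direction and nothing is read from their part in the counts and medians. The comparisons share the Vehicle library, so opposite signs in them are not separate observations. The *Ccl24* value of the stroma was under 2-fold without its leading cell (-0.89), and where cells met no other rule (-0.39).

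**Figure D5:**
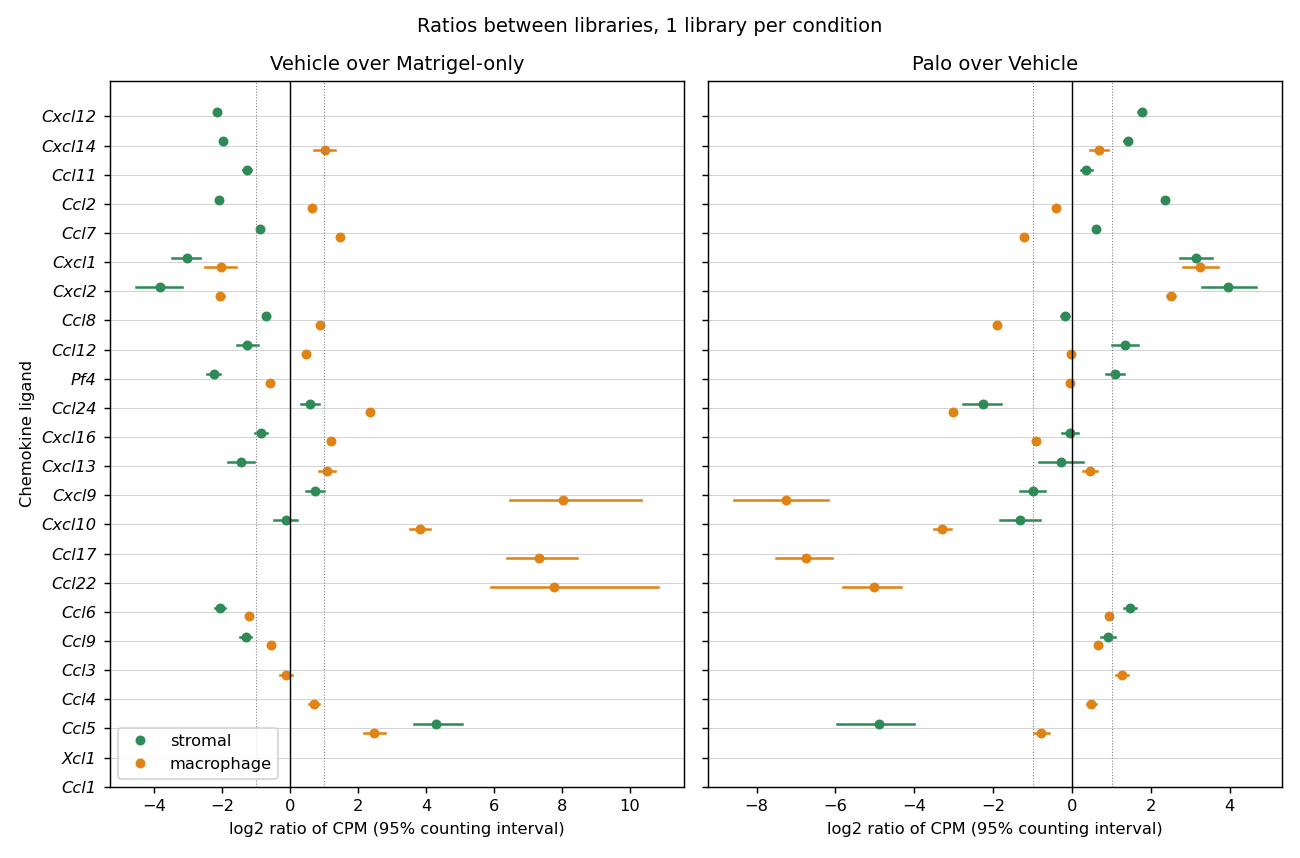
Log2 ratio of CPM (horizontal axis, with 95% counting intervals) of each ligand in stromal cells and in macrophages, for Vehicle over Matrigel-only and for Palo over Vehicle. Dotted lines mark 2-fold, and ligands without enough UMIs in a class have no point. *Ccl2* (-2.09 and 0.65) and *Ccl7* (-0.89 and 1.48) lie on opposite sides of 0 in the classes on the left, *Cxcl1* and *Cxcl2* lie on one side in both, and the stromal points of *Ccl5* rest on 1 cell.

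Of 23 receptor genes, 1 reached 50 CPM in the stroma of each library (*Ackr3*, a scavenging receptor of *Cxcl12*, at 311, 69.6 and 214 CPM). In macrophages *Ccr2* stood at 724, 711 and 1058 CPM, *Ccr1* at 88.4, 182 and 94.2 CPM and *Cx3cr1* at 59.8, 195 and 101 CPM. *Cxcr4*, the receptor of *Cxcl12*, stood at 43.3, 72.6 and 38.4 CPM in macrophages. *Cxcr6*, the receptor of *Cxcl16*, stood at 357 and 272 CPM in the T/NK cells of Matrigel-only and Vehicle, and *Cxcr2*, the receptor of *Cxcl1* and *Cxcl2*, at 3473 CPM in Vehicle neutrophils. *Ackr3* and its ligand *Cxcl12* had the same order of libraries in the stroma, both lowest in Vehicle. So did *Ackr1* (26.6, 5.72 and 15.4 CPM) and *Ackr2* (11.6, 1.06 and 4.99 CPM). *Ackr4* stood at 1.35, 0.212 (0.069 to 0.495) and 0.316 (0.103 to 0.737) CPM. It had 5 UMIs each in Vehicle and Palo, so their order is not shown. Not all receptors were lowest in Vehicle: *Cxcr4* was highest in Vehicle stroma (2.44, 7.8 and 1.2 CPM). A link between *Ackr3* and *Cxcl12* was not tested.

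Neighbouring genes did not share a source in every case. In GENCODE vM21 on mm10, *Ccl2*, *Ccl7*, *Ccl11*, *Ccl12* and *Ccl8* lie in a row on chromosome 11 from 82035571 to 82116799, with gaps of 8.26, 10.3, 38.9 and 11.8 kb. *Ccl11* was stromal, *Ccl12* and *Ccl8* were macrophage transcripts, and *Ccl2* and *Ccl7* were shared. The *Ccl5*, *Ccl9*, *Ccl6*, *Ccl3* and *Ccl4* genes lie between 83525778 and 83664683 on the same chromosome, and of these *Ccl5* was led by T/NK cells and the others by basophils in Vehicle.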

How the data were processed

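Transcripts of single cells were measured in 1 droplet library for each of 3 groups of day 5 masses. The authors aligned reads with Cell Ranger 3.0.2 to mm10 and deposited raw UMI counts per barcode and gene, without normalization, and named Seurat 3 in their processing notes. Cells with 200 to 6000 genes and at most 5% mitochondrial UMIs were kept, as in the study. No doublet caller was run. Doublets were addressed by the gene limit and by alternatives that keep cells meeting exactly 1 rule or drop the deepest 5%. Levels are UMIs summed over a class as CPM, with exact Poisson intervals, and ratios carry exact conditional binomial intervals. Shares are expected values at 1000 UMIs per cell, with shallower cells left out and binomial intervals over the cells. Ratios for counts of ligands add 5 CPM. Genes with a mean of 5 CPM in the class entered these counts. A class under 50 cells in a library gave no ratio. Ligands with 50 CPM in a class or past 2-fold were named. Members, lists and subsets were chosen with earlier results of these data known. Leaving out the leading gene of a total or the leading cell of a gene was chosen after seeing the data. Promoters are from RefSeq (GRCm38.p6). Python 3.11.15, numpy 2.4.6, scipy 1.17.1, pandas 2.3.3, matplotlib 3.10.9, R 4.3.3 and edgeR 4.0.16 (TMM factors) were used, and the scripts were tested on simulated data.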

Additional observations from a re-analysis of the deposited data

Results flagged for a closer look

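The search covered the 20 ligands that reached 50 CPM in a class, where they had a mean of 5 CPM in both stromal cells and macrophages. In 6 cases among these the log2 ratio of a ligand lay on opposite sides of 0 in the classes. Both intervals were clear of 0 and both values at least 0.5 in size. Ligands under 50 CPM, such as *Cxcl13*, were not searched. For Vehicle over Matrigel-only the stromal and macrophage values were -0.86 and 1.19 for *Cxcl16*, -2.09 and 0.65 for *Ccl2*, -0.89 and 1.48 for *Ccl7*, -0.72 and 0.89 for *Ccl8*, and -1.97 and 1.02 for *Cxcl14*. For Palo over Vehicle they were 0.61 and -1.21 for *Ccl7*. With 1 library per condition the difference between the classes was not tested. *Ccl8* in the stroma stood at 5.52%, 1.81% and 5.98% of its macrophage level in Matrigel-only, Vehicle and Palo, where the macrophage markers stood at 3.67%, 1.34% and 2.73%. The Vehicle stroma held 725 cells with cartilage genes, in which *Ccl2* stood at 20.7 CPM, and 112 *Pi16* cells, in which it stood at 384 CPM.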

How the results depend on the processing

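No paired analysis was possible because each condition has 1 library, and no library could be left out. Depth limits T/NK cells, neutrophils and basophils most, where 1 UMI was worth 1.84, 24.3 and 7.71 CPM in Vehicle. Values below are log2 ratios of the chemokine total. In stromal cells, Vehicle over Matrigel-only (-1.47) was -1.41 with cells meeting exactly 1 rule, -1.54 at a stromal limit of 5%, -1.38 with all barcodes, -1.44 at 10% mitochondrial UMIs, -1.36 without the deepest 5% of cells, -1.19 with cells weighted equally, -1.40 with TMM factors and -1.31 without *Ccl2*. Palo over Vehicle (1.19) was 1.42 at 5%, 1.10 without the deepest cells, 0.86 with cells weighted equally, 1.15 with TMM and 0.78 without *Ccl2*. In macrophages, Vehicle over Matrigel-only (0.24) was -0.0507 with cells counted in every class they met, 0.0548 at 5%, 0.22 with all barcodes, 0.23 at 10%, 0.26 without the deepest cells, 0.11 with cells weighted equally, 0.23 with TMM and -0.14 without *Ccl8*. Palo over Vehicle (-0.56) was -0.21, -0.35, -0.54, -0.55, -0.59, -0.43 and -0.37 under these, -0.58 at 2 marker UMIs, and 0.025 without *Ccl8*. The counts of ligands past 2-fold ranged from 6 to 11 over the alternatives for stromal, lower in Vehicle (9, with 6 under exactly 1 rule), and from 4 to 8 for stromal, higher in Palo (6, with 4 when cells were weighted equally). Others moved by over 1.5 times: stromal, higher in Vehicle, from 1 to 0 at 5%; stromal, lower in Palo, from 2 to 1 with exactly 1 rule, 0 at 5% and 4 with cells weighted equally; macrophage, higher in Vehicle, from 8 to 5 with cells counted in every class; macrophage, higher in Palo, from 3 to 5 without the deepest cells. Stromal *Ccl5* turned from 2.00 to -0.073 (Vehicle over Matrigel-only) and from -2.08 to 0.049 (Palo over Vehicle) at 5%. Of 468 values of the 39 named ratios past 2-fold, 466 kept their direction and 19 were no longer past 2-fold. The values with 1 CPM added and those without the filter on low levels could neither change direction nor fall under 2-fold. The 39 also include *Cxcl9*, *Ccl17* and *Ccl22* in macrophages and *Ccl5* in the stroma, whose direction the filter fixed. These tallies are therefore not read as a measure of stability. Apart from the single cells and genes left out, the cause of the moves between settings was not tested.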

Other observations

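Cells that met none of the rules, 779, 501 and 398 in Matrigel-only, Vehicle and Palo, also held chemokine transcripts. *Ccl6* stood at 2208, 548 and 1827 CPM and *Ccl9* at 1112, 502 and 1016 CPM in them, both lowest in Vehicle, while *Ccl24* stood at 406, 1202 and 225 CPM. *Ccl8* stood at 29.5, 1059 and 13.3 CPM. Macrophage markers in these cells summed to 740, 1416 and 545 CPM, and dendritic cell markers to 573, 851 and 644 CPM.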
